A study of Homo sapiens with 112 samples.

Results

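The set described here holds 10 genes for enzymes that make and place amino sugars: GFPT1, GNPNAT1, PGM3, UAP1, GNE, NANS, GALNT7, GCNT1, ST6GALNAC1 and ST6GAL1. They were taken by symbol, and all 10 were found among the 58684 rows of the count table. The libraries were made from poly(A) RNA, and each value below rests on the number of sequenced reads assigned to a gene. VCaP and LAPC4 are established prostate cancer cell lines, and VCaP carries a fusion that places ERG under androgen control. Each library comes from cells of 1 of these lines, kept in hormone-depleted medium with 10% charcoal-stripped serum for 2 days before treatment. The treatments were DMSO (the vehicle), 1 nM R1881 (a synthetic androgen), and 1 nM R1881 with either 500 nM or 2 µM darolutamide, an antiandrogen drug. Cells were collected after 8 or 22 h, and every darolutamide library therefore also received R1881. The 55 VCaP libraries comprise, for 8 h, 10 of DMSO, 10 of R1881, 4 with 500 nM and 5 with 2 µM darolutamide, and 8, 9, 4 and 5 of the same treatments for 22 h. The 57 LAPC4 libraries comprise, in the same order, 10, 10, 5 and 5 for 8 h and 7, 10, 5 and 5 for 22 h. Group sizes of 4 to 10 differ from the 5 biological replicates that the methods describe. Every darolutamide library is numbered 1 to 5, while DMSO and R1881 libraries are numbered up to 10, and the labels do not say whether the numbers above 5 belong to a separate run. Each cell line is a single long-passaged culture model, so the libraries of a group are repeats of that line and not of patients.

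The hexosamine pathway turns fructose 6-phosphate into UDP-N-acetylglucosamine (UDP-GlcNAc), the donor sugar for N-glycans, O-GlcNAc and many other glycans. GNE and NANS carry this sugar on toward sialic acid, the negatively charged residue that caps many glycan chains. Secreted and membrane proteins of the prostate are heavily glycosylated in the endoplasmic reticulum and the Golgi apparatus, where GALNT enzymes start mucin-type O-glycans and GCNT and sialyltransferase enzymes branch and cap them.

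RefSeq promoter windows (GRCh38.p14, 250 bases before to 50 after a transcription start) were available for 9 of the 10 members, 16 windows in all, and ST6GALNAC1 had no entry. On either strand, CCACG, the core of the element through which the unfolded protein response acts, was found in 13 of the 16 windows, against 38.1% of all 35116 windows. It was found at least once for each of the 9 members, but a member had up to 4 windows and the share is per window. The longer form, CCAAT and CCACG separated by 9 bases, was in none of the 16 and in 0.0769% of all windows. TGACGTG, a site related to that response, was found in 4 of the 16 windows and in 1.97% of all windows. Those 4 windows belong to UAP1, NANS and GCNT1, and the 2 for UAP1 overlap and share the site. The GC content of the member windows ran from 38.3 to 79.3%, against a median of 58.7% over all windows. Windows of GCNT1 at 38.3, 51.3 and 52.3% and of GNE at 43.3% lay below that median, and all others above it. CCACG and TGACGTG each hold a CG pair. The count of CG pairs was 3 in a GCNT1 window, 6 in a GNE window and 15 to 48 in the others, against a median of 14 over all windows. The part of base content in the matches was not tested, and a match is a description of letters only.

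The 250 bases upstream of 1 start each of UAP1, NANS and GCNT1 are printed because they hold TGACGTG. Those of GFPT1 are printed as an example of a window with 3 copies of CCACG. The GCNT1 window printed here and a window of PGM3, not printed, also have 3 copies. Capitals mark CCACG and TGACGTG on either strand. In the NANS and GCNT1 windows TGACGTG overlaps a CCACG match, and the last capitals of the GCNT1 line begin a match that runs past the start. The UAP1 window is chr1:162561472-162561721 (plus strand), NANS chr9:98056482-98056731 (plus), GCNT1 chr9:76458932-76459181 (plus) and GFPT1 chr2:69387228-69387477 (minus), each written 5′ to 3′ along its gene.
UAP1: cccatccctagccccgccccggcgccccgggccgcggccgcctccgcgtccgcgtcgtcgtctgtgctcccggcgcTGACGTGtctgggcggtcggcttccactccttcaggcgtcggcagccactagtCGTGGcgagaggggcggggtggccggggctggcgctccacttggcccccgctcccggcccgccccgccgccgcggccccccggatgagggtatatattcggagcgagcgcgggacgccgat
NANS: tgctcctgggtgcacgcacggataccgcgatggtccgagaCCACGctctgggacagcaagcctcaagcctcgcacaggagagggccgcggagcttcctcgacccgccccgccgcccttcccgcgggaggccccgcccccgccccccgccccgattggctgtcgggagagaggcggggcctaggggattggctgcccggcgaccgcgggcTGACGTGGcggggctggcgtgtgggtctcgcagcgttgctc
GCNT1: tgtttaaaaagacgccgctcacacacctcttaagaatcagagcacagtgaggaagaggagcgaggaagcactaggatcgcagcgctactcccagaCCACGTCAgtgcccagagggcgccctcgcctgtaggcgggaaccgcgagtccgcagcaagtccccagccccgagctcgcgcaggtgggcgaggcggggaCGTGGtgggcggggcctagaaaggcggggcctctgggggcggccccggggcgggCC
GFPT1: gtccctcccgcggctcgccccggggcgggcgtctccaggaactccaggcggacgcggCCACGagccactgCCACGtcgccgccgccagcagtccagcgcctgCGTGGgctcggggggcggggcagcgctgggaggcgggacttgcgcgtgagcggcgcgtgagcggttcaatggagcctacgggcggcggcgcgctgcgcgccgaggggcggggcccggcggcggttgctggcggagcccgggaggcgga

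Library totals ran from 12.2 M to 25.2 M reads with a median of 20.1 M, and none was identical to another. Every member had at least 10 reads in every library, from 15 reads (ST6GALNAC1, LAPC4) to 14596 reads (GFPT1, VCaP), so all 10 passed the low-count filter in both lines. The labels of the lines held: ERG had 1578 to 21554 reads in the VCaP libraries and 0 or 1 read in those of LAPC4. In VCaP, KLK3 (prostate-specific antigen) averaged 17.6 CPM (a gene's reads scaled to library size, with the TMM factors that correct for composition) under DMSO and 191 CPM under R1881 at 22 h. The summed level of 8 markers of other cell types ran from 1.35 to 2.78 CPM in the VCaP DMSO libraries at 22 h and from 2.46 to 4.62 CPM with R1881, and its part in the results was not tested. By gene, the mean of VWF was 0.424 CPM with DMSO and 2.71 CPM with R1881, and that of PECAM1 0.135 and 0.189. COL1A1 (1 and 0.807 CPM), COL3A1 (0.328 and 0), DCN (0.195 and 0.0054) and PTPRC (0.0115 and 0) were lower with R1881. COL1A2 and CD68 had 0 reads in both groups. In VCaP the TMM scaling of the R1881 libraries sat 0.11 (22 h) and 0.143 (8 h) log2 units below that of the DMSO libraries, so folds there are relative to that scaling. RNA per cell and number of cells cannot be told apart in bulk libraries. Exons of GNPNAT1, PGM3, NANS, GALNT7 and GCNT1 overlap genes on the opposite strand, over 35.56% of the exon bases for GNPNAT1 and at most 8.56% for each overlap of the others, and the strand setting of the counting is not given in the sources used here, although the library kit keeps strand.

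Levels between genes were compared as CPM per kilobase of the reference transcript. Reads were counted per gene, and all exons of a gene together can be much longer than this transcript. For NANS they span 4931 against 1179 bases, for PGM3 22007 against 6079 and for GALNT7 6807 against 4249. The order below therefore rests on this choice of length, which the SD does not cover. In VCaP under DMSO at 22 h, the mean ± SD (n = 8) was highest for GALNT7 at 51.9 ± 3.71 CPM per kilobase. GNPNAT1 (34.1 ± 2.48) and GFPT1 (33.7 ± 2.46) followed and did not differ beyond their spread, then UAP1 (28.3 ± 2.54), PGM3 (17.1 ± 1.09) and NANS (12.9 ± 1.17). The lowest levels were those of GCNT1 (9.93 ± 0.598) and ST6GAL1 (8.95 ± 0.532), whose spreads overlapped, GNE (5.87 ± 0.263) and ST6GALNAC1 (3.26 ± 0.331). In LAPC4 under DMSO at 22 h (n = 7) the order changed at several places: NANS stood at 37.6 ± 2.09 CPM per kilobase, GCNT1 at 0.734 ± 0.116 and ST6GALNAC1 at 0.399 ± 0.0746. The lines were scaled separately, so these levels were not tested between lines.

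The first question was how the androgen changes these enzymes in VCaP. At 22 h all 10 members were higher with R1881 than with DMSO and passed the test (edgeR quasi-likelihood, adjusted p under 0.05), with folds from 1.31 (GCNT1) to 8.64 (ST6GALNAC1). The median log2 fold change of the members was 1.24 against -0.03 over all tested genes. In this comparison 77.4% of the 19266 tested genes passed, and 37.4% passed as higher, so passing alone says little about a gene. The R1881 and DMSO libraries did not overlap for any of the 10 members, against 46.8% of all tested genes.

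**Figure D1:**
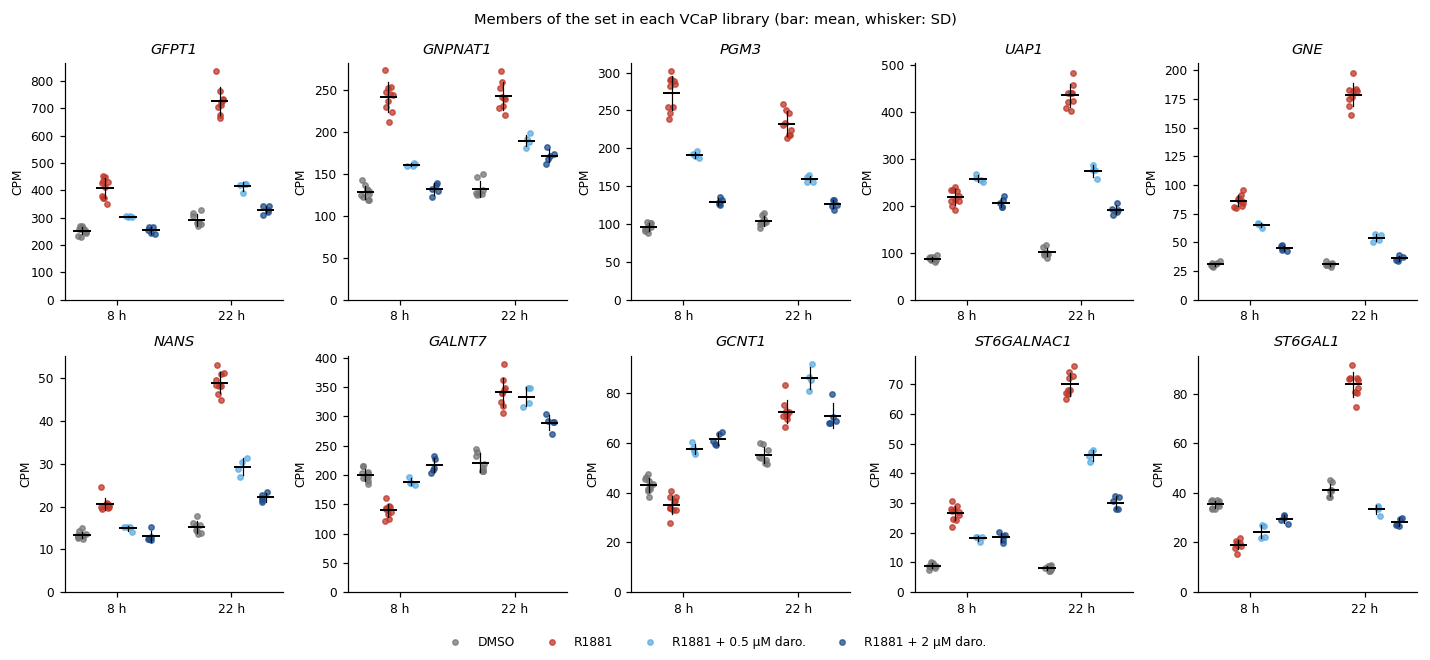
CPM of each member (vertical axis, linear from 0) in every VCaP library at 8 and 22 h, coloured by treatment (0.5 µM is the 500 nM dose); bars are group means and whiskers 1 SD. At 22 h the R1881 points (red) lie above the DMSO points (grey) for all 10 members, while at 8 h those of GALNT7, GCNT1 and ST6GAL1 lie mostly or wholly below.

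The 4 enzymes that make UDP-GlcNAc all rose at 22 h. GFPT1, the rate-limiting first enzyme, ran from 269 through a median of 283 to 328 CPM in the DMSO libraries and from 665 through 724 to 835 CPM with R1881. Its log2 fold change was 1.32 ± 0.0452 (SE; adjusted p = 4.7e-33). UAP1, the last enzyme, which turns the sugar phosphate into UDP-GlcNAc, ran from 89.2 through 98.5 to 116 CPM with DMSO and from 403 through 440 to 484 CPM with R1881. The lowest UAP1 level with R1881 was thus well above the highest with DMSO, and its log2 fold change of 2.11 ± 0.0446 was the largest of the 4 (adjusted p = 2.69e-43). The middle steps moved less. PGM3, the phosphoglucomutase of the pathway, had a median of 102 CPM with DMSO and 231 CPM with R1881 (log2 fold change 1.16 ± 0.0423). GNPNAT1, the acetyltransferase before it, had medians of 127 and 240 CPM (0.88 ± 0.0427).

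Both sialic acid enzymes rose. GNE, the epimerase and kinase that commits UDP-GlcNAc to sialic acid, ran from 28.8 through 30.7 to 33.6 CPM with DMSO and from 161 through 182 to 198 CPM with R1881. This was a log2 fold change of 2.53 ± 0.0391 (5.79-fold, adjusted p = 6.02e-50). NANS, the sialic acid synthase, ran from 13.7 through 15.0 to 17.8 CPM with DMSO and from 45.0 through 48.4 to 53.2 CPM with R1881, a log2 fold change of 1.70 ± 0.0481.

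Of the transferases, ST6GALNAC1, which adds sialic acid to the first sugar of O-glycans and so makes the sialyl-Tn antigen, gave the largest fold of the 10. It ran from 6.97 through 8.03 to 9.28 CPM with DMSO and from 65.0 through 68.1 to 76.2 CPM with R1881 at 22 h, with a log2 fold change of 3.11 ± 0.0589 (adjusted p = 1.2e-45). ST6GAL1, which adds sialic acid to N-glycans, rose from a median of 41.0 to 85.5 CPM (1.02 ± 0.0457). GALNT7, which adds N-acetylgalactosamine to peptides that already carry it, rose from a median of 215 to 339 CPM (0.63 ± 0.0441). GCNT1, the core 2 branching enzyme, changed least, from 51.6 through 54.1 to 60.1 CPM with DMSO and from 66.6 through 71.2 to 83.3 CPM with R1881 (0.39 ± 0.0477, adjusted p = 1.26e-10).

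At 8 h the same 10 genes all passed the test in VCaP, but 7 were higher and 3 were lower with R1881. Of all tested genes 66.9% passed, 32.8% as higher and 34.1% as lower. The libraries of the 2 groups did not overlap for 9 members (32.0% of all tested genes), the exception being GCNT1. ST6GAL1 ran from 33.6 through 35.7 to 37.3 CPM with DMSO at 8 h and from 15.3 through 19.3 to 21.7 CPM with R1881, a log2 fold change of -0.89 ± 0.0443 (adjusted p = 1.79e-25). GALNT7 ran from 185 through 200 to 215 CPM with DMSO and from 121 through 141 to 161 CPM with R1881 (-0.52 ± 0.0408). GCNT1 ran from 38.3 through 42.9 to 47.4 CPM and from 27.9 through 35.2 to 40.6 CPM (-0.30 ± 0.0452). These 3 genes were thus lower with the androgen at 8 h and higher at 22 h.

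The hexosamine and sialic acid genes were already higher at 8 h. PGM3 had its larger effect at this time, with a median of 96.1 CPM under DMSO and 283 CPM under R1881 (log2 fold change 1.51 ± 0.0388). GNE had medians of 30.4 and 86.1 CPM (1.49 ± 0.0349), UAP1 of 87.5 and 217 CPM (1.32 ± 0.0400) and GNPNAT1 of 128 and 245 CPM (0.92 ± 0.0390). The smaller effects were those of GFPT1 (0.69 ± 0.0409) and NANS (0.62 ± 0.0448). ST6GALNAC1 went from a median of 8.72 to 27.1 CPM (1.60 ± 0.0528).

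The change of the R1881 effect between the time points was tested directly in VCaP, and 9 of the 10 members passed, against 60.4% of all tested genes. The effect was larger at 22 h by 1.91 ± 0.0636 log2 units for ST6GAL1, 1.52 ± 0.078 for ST6GALNAC1 and 1.15 ± 0.0601 for GALNT7. NANS (1.08), GNE (1.05), UAP1 (0.79), GCNT1 (0.69) and GFPT1 (0.63) also had larger effects at 22 h on the log2 scale. PGM3 went the other way, with an effect smaller by 0.35 ± 0.0564 at 22 h (difference of -0.35, adjusted p = 2.9e-07). For GNPNAT1 the difference was -0.04 ± 0.0573 and did not pass (adjusted p = 0.56).

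**Figure D2:**
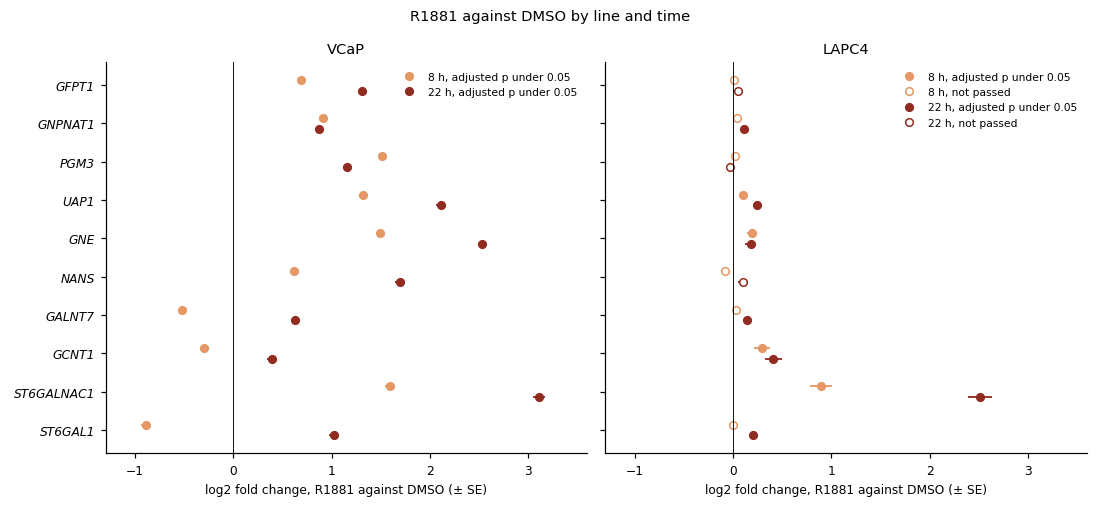
Log2 fold change of R1881 against DMSO (horizontal axis, with its standard error) for each member in VCaP (left) and LAPC4 (right) at 8 h and 22 h; filled points passed an adjusted p under 0.05. In VCaP ST6GAL1 moves from -0.89 at 8 h to 1.02 at 22 h, and in LAPC4 ST6GALNAC1 alone exceeds 1.

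The next question was how far darolutamide takes these genes back toward DMSO. At 22 h in VCaP, 9 of the 10 members were lower with R1881 plus 2 µM darolutamide than with R1881 alone and passed the test, GCNT1 being the exception. Of all tested genes 66.9% passed and 30.8% passed as lower. With 500 nM, 9 members passed, 8 of them lower, against 53.0% of all genes, 26.4% as lower. The comparisons with R1881 and with DMSO share control libraries, so each member's place is given on 1 scale, where 0% is the mean log2 CPM of the R1881 libraries and 100% that of the DMSO libraries.

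GNE came closest to the DMSO level without passing it: the 5 libraries with 2 µM ran from 33.7 to 39.2 CPM at 22 h, a place of 91.3 ± 3.28% (SD), and the 4 with 500 nM from 50.6 to 57.2 CPM, 68.2 ± 3.31%. GFPT1 reached 86.8 ± 4.69% with 2 µM and PGM3 76.2 ± 5.59%. NANS (67.4 ± 3.84%), GNPNAT1 (56.8 ± 7.11%) and UAP1 (55.9 ± 3.45%) stayed further from DMSO. The 6 genes up to sialic acid thus ended at different places within the same libraries.

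ST6GALNAC1, with the largest R1881 fold, ended far from DMSO. Its level at 22 h was 32.3, 31.9, 30.7, 28.0 and 28.0 CPM in the 5 libraries with 2 µM and 45.7, 43.7, 47.1 and 47.8 CPM in the 4 with 500 nM, places of 39.1 ± 3.18% and 19.4 ± 1.85%. All of these libraries lay between the R1881 and DMSO ranges. With 2 µM it remained 3.73-fold above DMSO (log2 fold change 1.90 ± 0.0648, adjusted p = 4.37e-32).

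ST6GAL1 went past the DMSO level. Its CPM at 22 h was 29.6, 30.0, 26.6, 27.4 and 27.2 with 2 µM and 30.8, 33.5, 34.9 and 34.4 with 500 nM, all below the lowest DMSO library at 38.3 CPM. The places were 154 ± 7.66% and 130 ± 7.82%, and the fold change of 2 µM against DMSO was -0.55 ± 0.0551 on the log2 scale (adjusted p = 9.96e-13).

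GCNT1 and GALNT7 showed the smallest differences from R1881 at 22 h. GCNT1 stood at 70.5, 68.8, 68.1, 68.1 and 79.8 CPM with 2 µM, within the R1881 range of 66.6 to 83.3 CPM, and its log2 fold change against R1881 of -0.03 ± 0.0539 did not pass (adjusted p = 0.619). With 500 nM it was 81.0, 86.5, 92.0 and 85.5 CPM, higher than with R1881 alone by 0.25 ± 0.0574 log2 units (adjusted p = 0.000225). GALNT7 fell by 0.24 on the log2 scale with 2 µM (adjusted p = 4.21e-05), while with 500 nM its difference of -0.03 ± 0.0540 did not pass (adjusted p = 0.653). Without the TMM factors the 2 values that missed the test, for GCNT1 with 2 µM and GALNT7 with 500 nM, had the opposite sign, 0.061 and 0.065.

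**Figure D3:**
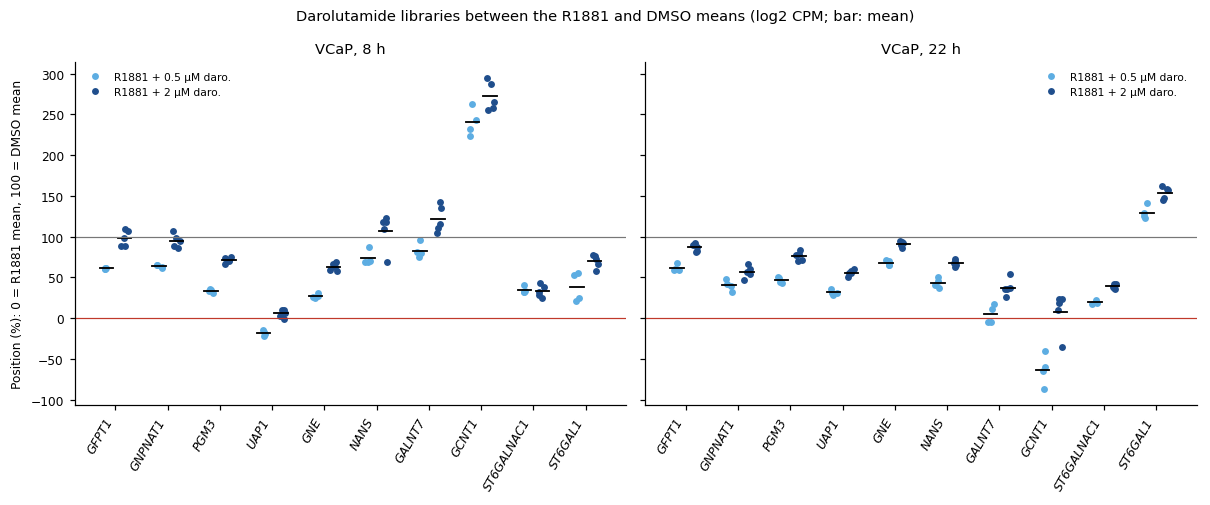
Place of each darolutamide library (points) between the mean R1881 level (0%, red line) and the mean DMSO level (100%, grey line) on the log2 CPM scale in VCaP at 8 h (left) and 22 h (right); short bars are means. At 22 h GNE lies near 100%, ST6GALNAC1 at 39.1% with 2 µM and ST6GAL1 above 100%, while GCNT1 at 8 h lies above 200% because both doses exceed both controls.

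Against DMSO, all 10 members passed at 22 h with 2 µM in VCaP, 9 higher and ST6GAL1 lower, while 59.0% of all tested genes passed. UAP1 (0.93 ± 0.0493), NANS (0.55 ± 0.0554), GALNT7 (0.39 ± 0.0509), GNPNAT1 (0.38 ± 0.0491) and GCNT1 (0.36 ± 0.0550) remained above DMSO on the log2 scale, and so did PGM3 (0.27), GNE (0.22) and GFPT1 (0.17). Between the doses at 22 h, 9 members were lower with 2 µM than with 500 nM and passed, against 20.2% of all genes. The differences ran from -0.21 (GALNT7) to -0.61 (ST6GALNAC1) on the log2 scale, and that of GNPNAT1, -0.14 ± 0.0578, did not pass (adjusted p = 0.0715), although it passed without replicate 1 of the 500 nM group (adjusted p = 0.0294), without TMM factors (adjusted p = 0.0404), with a term for the GC content of genes (adjusted p = 7.05e-05) and with the compared groups alone (adjusted p = 0.00527). The GALNT7 difference did not pass without replicate 2 (adjusted p = 0.0516) or replicate 3 (adjusted p = 0.0504) of that group.

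At 8 h in VCaP, 9 members passed with 2 µM against R1881, 6 lower and 3 higher (52.1% of all genes passed), and all 10 passed with 500 nM, 6 lower and 4 higher (30.6%). The 3 genes that R1881 had lowered were higher with 2 µM: GCNT1 by 0.81 ± 0.0531, GALNT7 by 0.64 ± 0.0488 and ST6GAL1 by 0.63 ± 0.0532 log2 units. GCNT1 stood at 59.4, 64.5, 59.8, 63.5 and 60.7 CPM with 2 µM and 60.4, 57.9, 55.8 and 56.7 CPM with 500 nM, above every DMSO library (at most 47.4 CPM) and every R1881 library. Its excess over DMSO with 2 µM was 0.51 ± 0.0531 log2 units (adjusted p = 8.38e-12).

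UAP1 was the member that did not pass at 8 h with 2 µM. Its 5 libraries with 2 µM were at 198, 220, 198, 206 and 212 CPM, inside the R1881 range of 190 to 240 CPM. The log2 fold change of -0.08 ± 0.0477 did not pass (adjusted p = 0.151), with a value of 0.03 when no TMM factors were used and a pass with the GC term (-0.09, adjusted p = 0.00161). With 500 nM the 4 libraries were at 267, 250, 260 and 254 CPM, all above the highest R1881 library, a difference of 0.24 ± 0.0508 (adjusted p = 0.000148). GNPNAT1, PGM3, GNE, GFPT1 and NANS were by contrast lower with both doses, PGM3 by -1.08 ± 0.0486 and GNPNAT1 by -0.87 ± 0.0492 log2 units with 2 µM. ST6GALNAC1 was lower with both doses, by -0.53 ± 0.0614 with 2 µM and -0.55 ± 0.0674 with 500 nM.

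Against DMSO at 8 h, 6 members passed with 2 µM (27.4% of all genes): UAP1 (1.24 ± 0.0467), ST6GALNAC1 (1.06 ± 0.0630), GNE (0.55 ± 0.0422), GCNT1 and PGM3 (0.43 ± 0.0464) were higher and ST6GAL1 (-0.27 ± 0.0530) lower. GFPT1, GNPNAT1, NANS and GALNT7 differed from DMSO by 0.01 ± 0.05, 0.04 ± 0.0477, -0.04 ± 0.0560 and 0.11 ± 0.0493 log2 units and did not pass, although GALNT7 passed with the GC term (adjusted p = 0.0197), with control replicates 6 and above (adjusted p = 0.0348) and with the compared groups alone (adjusted p = 0.0314). Between the doses at 8 h 8 members passed (17.6% of all genes), PGM3 with the largest difference at -0.57 ± 0.0568 and GNE at -0.53 ± 0.0509. For ST6GALNAC1 the difference between doses was 0.02 ± 0.0757 and did not pass (adjusted p = 0.918). NANS passed narrowly (-0.20, adjusted p = 0.0279) and did not pass without replicate 2, 3 or 4 of the 500 nM group or replicate 1, 2, 3 or 4 of the 2 µM group (adjusted p from 0.0508 to 0.116). Its call was also lost in DESeq2 (adjusted p = 0.0581). In edgeR it was lost with no filter (0.103), without TMM factors (0.0828) and with the compared groups alone (0.115).

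In LAPC4 ST6GALNAC1 gave the largest R1881 fold of the set, as in VCaP. At 22 h 7 members were higher with R1881 and passed, against 13.3% of the 18204 tested genes that passed and 6.83% that passed as higher. The median log2 fold change of the members was 0.16 against 0.01 over all tested genes. The R1881 and DMSO libraries did not overlap for 2 members, ST6GALNAC1 and UAP1 (3.83% of all tested genes). ST6GALNAC1 had 15 to 27 reads in the DMSO libraries and 87 to 131 reads with R1881, that is 0.750 through 0.968 to 1.21 CPM and 4.93 through 5.68 to 6.62 CPM. Its log2 fold change was 2.51 ± 0.125 (5.71-fold, adjusted p = 1.06e-23).

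The other changes in LAPC4 at 22 h were at most 1.33-fold. UAP1 ran from 136 through 139 to 149 CPM with DMSO and from 152 through 167 to 179 CPM with R1881 (log2 fold change 0.24 ± 0.0308, adjusted p = 1.37e-08). GCNT1, at a median of 3.92 CPM with DMSO and 5.25 CPM with R1881, changed by 0.41 ± 0.0875, ST6GAL1 by 0.20 ± 0.0313, GNE by 0.18 ± 0.0557, GALNT7 by 0.14 ± 0.0359 and GNPNAT1 by 0.11 ± 0.0333. GFPT1, NANS and PGM3 did not pass, with values of 0.05 ± 0.0451, 0.10 ± 0.0473 and -0.03 ± 0.0368. With control replicates 1 to 5 alone 4 members passed at 22 h, without GNPNAT1, GNE and GCNT1, while the genes passing over the whole table went from 2417 to 1640. With control replicates 6 and above alone 4 members passed, without GNPNAT1, GNE and GALNT7, and 813 genes over the whole table. In that subset the DMSO group of LAPC4 at 22 h holds only replicates 6 and 7.

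At 8 h in LAPC4 4 members were higher and passed (2.64% of all genes passed, 1.75% as higher), and only ST6GALNAC1 showed no overlap between the groups (0.725% of all genes). ST6GALNAC1 ran from 1.15 through 1.46 to 1.90 CPM with DMSO and from 2.07 through 2.83 to 3.69 CPM with R1881 (log2 fold change 0.90 ± 0.111). GCNT1 (0.29 ± 0.0809), GNE (0.19 ± 0.0508) and UAP1 (0.10 ± 0.0278) were the other 3, and none of these 3 passed with either group of control replicates alone. The R1881 effect was larger at 22 h than at 8 h for 2 members that passed that test, against 3.21% of all tested genes. The differences were 1.62 ± 0.171 log2 units for ST6GALNAC1 and 0.20 ± 0.0422 for ST6GAL1. For ST6GAL1 the median with R1881 was 74.9 CPM at 8 h and 74.2 CPM at 22 h. Its median with DMSO went from 75.1 to 63.1 CPM, so the difference lay mainly in the DMSO libraries. For ST6GALNAC1 the median rose from 2.83 to 5.68 CPM with R1881 and fell from 1.46 to 0.968 CPM with DMSO.

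**Figure D4:**
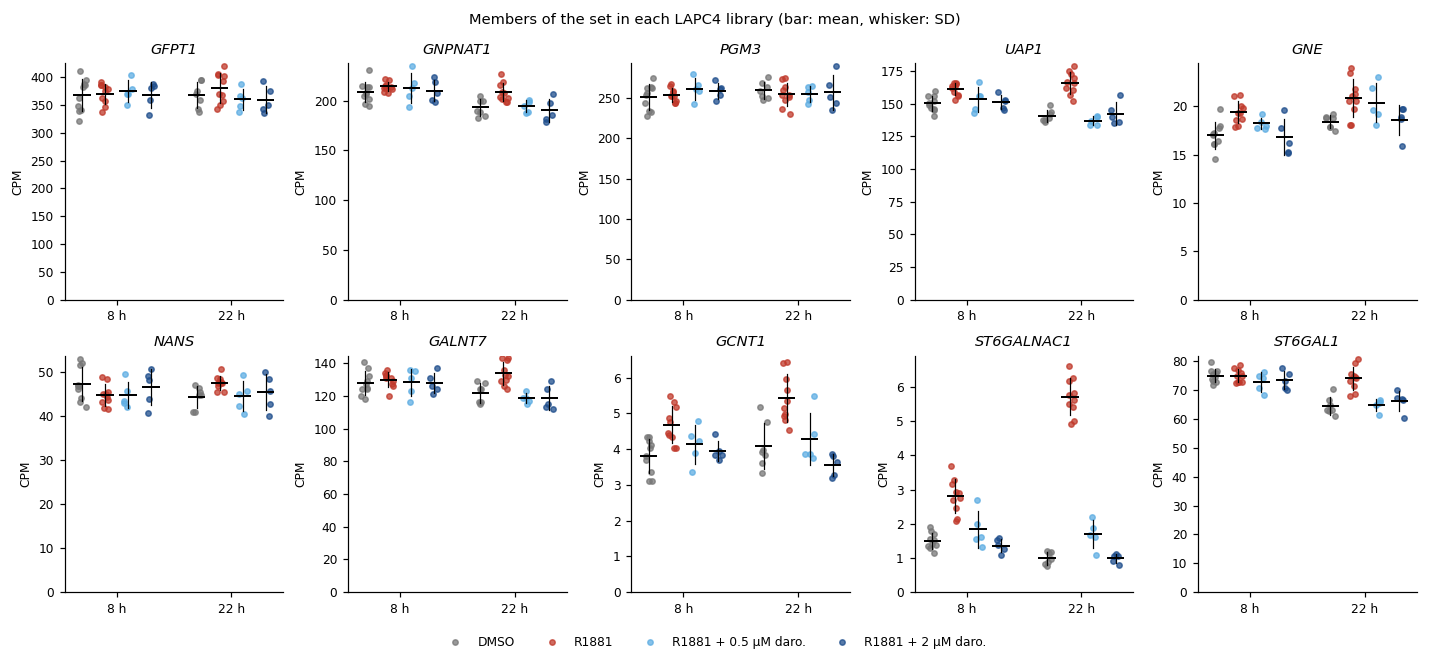
CPM of each member (vertical axis, linear from 0) in every LAPC4 library at 8 and 22 h, coloured by treatment (0.5 µM is the 500 nM dose); bars are group means and whiskers 1 SD. ST6GALNAC1 is the member whose R1881 points stand clear of every other treatment at 22 h, between 4.93 and 6.62 CPM, and the UAP1 points with R1881 lie between 152 and 179 CPM, above those with DMSO.

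Of the 7 members that R1881 had raised in LAPC4 at 22 h, all but GNE passed as lower with 2 µM darolutamide. At 22 h these 6 members were lower with 2 µM than with R1881 (10.5% of all genes passed, 5.45% as lower), and 5 with 500 nM (5.89%, 3.21% as lower), GNE and GNPNAT1 being the exceptions. ST6GALNAC1 stood at 1.06, 1.05, 0.907, 1.10 and 0.800 CPM with 2 µM and 2.21, 1.08, 1.61, 1.88 and 1.67 CPM with 500 nM, places of 100 ± 7.24% and 71.2 ± 14.8% between R1881 and DMSO. The next changes with 2 µM were those of GCNT1 (-0.61 ± 0.1), UAP1 (-0.22 ± 0.0344), GALNT7 (-0.17 ± 0.0401), ST6GAL1 (-0.16 ± 0.0349) and GNPNAT1 (-0.13 ± 0.0372) on the log2 scale. The GNPNAT1 call was lost without replicate 1 (adjusted p = 0.0741) or 5 (adjusted p = 0.0713) of the 2 µM group, and with control replicates 6 and above neither GNPNAT1 (adjusted p = 0.132) nor ST6GAL1 (adjusted p = 0.064) passed. With 500 nM the 4 members that passed beside ST6GALNAC1 were UAP1 (-0.28), GCNT1 (-0.35), ST6GAL1 (-0.19) and GALNT7 (-0.18). The GCNT1 call was lost without replicate 2 (adjusted p = 0.0742), 3 (adjusted p = 0.092) or 5 (adjusted p = 0.0765) of the 500 nM group and with control replicates 1 to 5 (adjusted p = 0.102). At 8 h ST6GALNAC1 was the 1 member that passed with 2 µM (-1.05 ± 0.140; 1.54% of all genes) and with 500 nM (-0.62 ± 0.132; 0.626%). The call with 500 nM at 8 h was lost without replicate 4 (adjusted p = 0.0526) or replicate 5 (adjusted p = 0.0721) of that group.

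Between the doses in LAPC4, ST6GALNAC1 passed at 22 h (-0.78 ± 0.181, adjusted p = 0.0279; 0.258% of all genes), but not without replicate 1, 3, 4 or 5 of the 500 nM group or replicate 2, 3 or 5 of the 2 µM group (adjusted p from 0.0527 to 0.268). At 8 h 0 members passed in edgeR or DESeq2, 1 had an unadjusted p under 0.05, and 0.0275% of all genes passed. Against DMSO with 2 µM, 0 members passed at 22 h or at 8 h in edgeR or DESeq2 and 0 had an unadjusted p under 0.05, with 0.0165% and 0.0110% of all tested genes passing. These shares are 3 and 2 genes, and with control replicates 1 to 5 alone 90 and 42 genes passed. The member differences from DMSO ran from -0.20 to 0.04 log2 units at 22 h and from -0.15 to 0.05 at 8 h.

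The difference of the R1881 effect between the lines at 22 h was tested in 1 fit over both. The effect was larger in VCaP for 9 of the 10 members (68.5% of the 16578 tested genes passed, 31.6% with the more positive effect in VCaP). The difference was 2.30 ± 0.0698 log2 units for GNE, 1.81 ± 0.0588 for UAP1, 1.54 ± 0.0609 for NANS, 1.2 ± 0.0708 for GFPT1 and 1.13 ± 0.0631 for PGM3. It was 0.77 ± 0.0602 for ST6GAL1, 0.71 ± 0.0613 for GNPNAT1, 0.54 ± 0.138 for ST6GALNAC1 and 0.43 ± 0.0635 for GALNT7. For GCNT1 it was -0.07 ± 0.0980 and did not pass (adjusted p = 0.52). The ST6GALNAC1 difference did not pass with the control replicates 6 and above alone (0.30, adjusted p = 0.364). In that subset DMSO at 22 h holds only replicates 6 and 7 of LAPC4 and 6 to 8 of VCaP.

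Other genes of the same pathways went in both directions. A list of 57 further genes for UDP-GlcNAc metabolism, sialic acid metabolism, GALNT enzymes, O-glycan cores and sialyltransferases held 46 that were tested in VCaP, and at 22 h 20 of these were higher with R1881, 19 were lower and 7 did not pass. Over all tested genes 77.4% passed and 37.4% passed as higher, so these counts are near the background. Their median log2 fold change was 0.02, against 1.24 for the 10 members and -0.03 over all tested genes. These further genes were chosen with earlier results of these data known, so the contrast with the members is a description only. By group, 5 rose and 3 fell of 11 UDP-GlcNAc genes, 3 rose and 4 fell of 9 sialic acid genes, 7 rose and 4 fell of 11 tested GALNT genes, 1 rose and 2 fell of 3 tested core enzymes, and 4 rose and 6 fell of 12 tested sialyltransferases. In LAPC4 42 were tested, of which 2 were higher, 9 were lower and 31 did not pass at 22 h. Of all 18204 tested genes there, 2417 passed (13.3%), 1244 as higher (6.83%) and the others as lower.

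Among the UDP-GlcNAc and sialic acid genes with more than a 2-fold change in VCaP, DPAGT1, which uses UDP-GlcNAc to start the N-glycan precursor, averaged 45.8 CPM with DMSO and 95.3 CPM with R1881 (log2 fold change 1.06 ± 0.0385). SLC17A5, the lysosomal sialic acid exporter, averaged 13.7 and 43.3 CPM (1.66 ± 0.0514). The sialidase NEU3 fell from 53.5 to 22.7 CPM (-1.23 ± 0.0394), and RENBP, an epimerase of amino sugars, from 2.86 to 1.07 CPM (-1.39 ± 0.188). RENBP had 8 to 33 reads with R1881. A second sialidase, NEU4, had 4 to 13 reads with DMSO and 0 to 2 reads with R1881.

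The GALNT family split in VCaP: GALNT10 rose from 4.90 to 15.9 CPM (1.69 ± 0.0565) and GALNT9 from 1 to 5 reads to 7 to 37 reads, while GALNT6 fell from 1.58 to 0.381 CPM (-2.02 ± 0.170) and GALNT14 from 4.34 to 1.76 CPM (-1.3 ± 0.124). GALNT6 had only 3 to 13 reads with R1881. GALNT10 went the other way in LAPC4, from 95.6 to 83.0 CPM (-0.20 ± 0.0352, adjusted p = 1.1e-05). B3GNT6, the core 3 enzyme, had 16 to 34 reads in the DMSO libraries of VCaP and 0 reads in all 9 R1881 libraries. Taking 3 reads in each R1881 library as the floor, it was at least 8.05-fold lower. In LAPC4 it fell from 5.98 to 3.61 CPM (-0.73 ± 0.105).

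Among sialyltransferases in VCaP, ST3GAL4 (9.38 to 21.8 CPM, 1.22 ± 0.0859), ST3GAL6 (0.538 to 1.85 CPM, 1.76 ± 0.198) and ST8SIA6 (1 to 6 reads against 6 to 21 reads) rose. ST3GAL6 had only 5 to 18 reads with DMSO. The gene ST6GAL2, which has the same linkage as ST6GAL1, fell from 2.38 to 0.450 CPM (-2.41 ± 0.156), with only 4 to 14 reads under R1881. ST6GALNAC5, of the same family as ST6GALNAC1, fell from 31.9 to 10.7 CPM (-1.57 ± 0.0487) and ST6GALNAC4 from 1.32 to 0.408 CPM (-1.66 ± 0.258). ST6GALNAC4 had only 4 to 13 reads with R1881. In LAPC4 ST6GALNAC5 also fell, from 6.71 to 4.62 CPM (-0.53 ± 0.0780), and ST3GAL1, which caps core 1 O-glycans, fell from 244 to 170 CPM (-0.52 ± 0.0267, adjusted p = 6.05e-23), whereas in VCaP ST3GAL1 rose from 2.35 to 3.55 CPM.

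**Figure D5:**
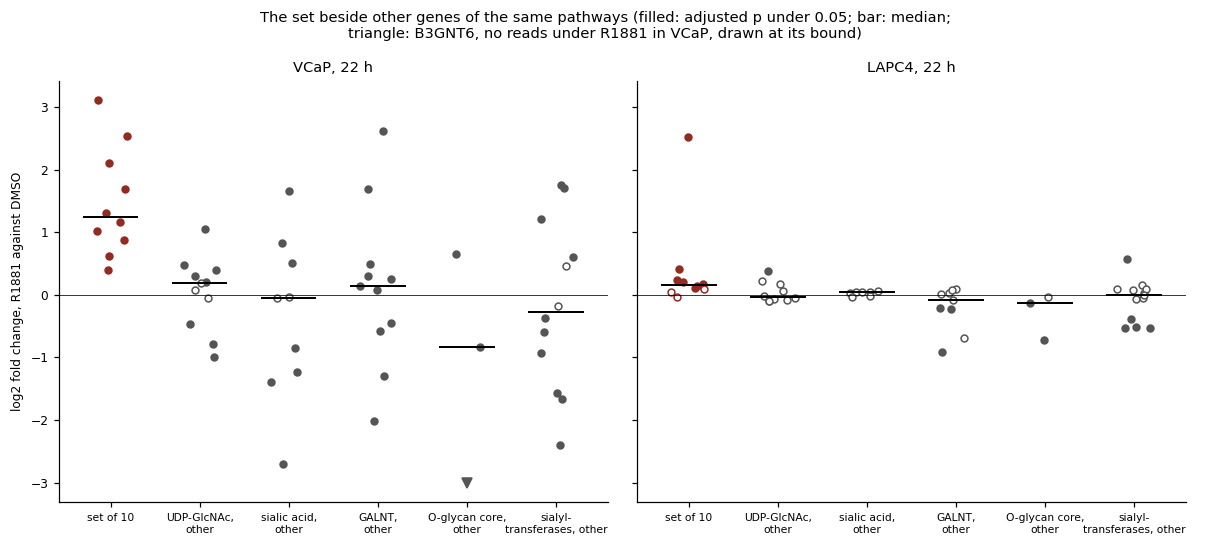
Log2 fold change of R1881 against DMSO at 22 h (vertical axis) for the 10 members (dark red) and the tested genes of 5 related lists (grey) in VCaP (left) and LAPC4 (right); filled points passed an adjusted p under 0.05, bars are medians and the triangle is B3GNT6 at its bound. In VCaP all 10 members lie above 0 while the other lists spread to both sides.

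Over the 55 VCaP libraries, which share treatments and times, the genes whose log2 CPM ran most like each member differed by member. UAP1 ran most like KIF5C (r = 0.99) and CHPT1 (0.99), PGM3 like EDEM1 (0.99) and SUCO (0.99), and GNPNAT1 like SSR3 (0.98) and EIF2AK3 (0.98). GFPT1 ran like TMEM50A and LMAN1 (both 0.99), NANS like DAD1 and P4HB (both 0.98), and GNE like CTNNA1 and GOLPH3 (both 0.99). ST6GALNAC1 ran like SPOCK1 and ARPC5L (both 0.98), GALNT7 like PTPN3 and EMP2 (both 0.97), ST6GAL1 like OVGP1 (0.97) and HGD (0.95), and GCNT1 like CFAP69 and FAM174B (both 0.93). Over the 57 LAPC4 libraries the same pairs had r from -0.43 (GNE with CTNNA1) to 0.75 (PGM3 with SUCO), with SPOCK1 not tested there. These are descriptions of the same libraries, chosen for being the highest, and carry no test.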

How the data were processed

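The authors sequenced RNA of VCaP and LAPC4 cells as 50-base reads, aligned them to GRCh38 with STAR and counted reads per gene with featureCounts of the Subread package (the submitters' processing notes also name bcl2fastq 2.17 and DESeq2). The values deposited by the authors are raw counts per gene, not normalized, in 1 table of 58684 genes and 112 libraries. How multi-mapping reads were handled, the strand setting and the annotation are not given in the sources used here. Groups were taken from the sample labels. The labels give replicate numbers without saying what sets replicates apart, so p-values measure the spread between these libraries, which may in part be technical. Library totals of 12.2 M to 25.2 M reads limit the precision of low genes.

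Within each line, a gene entered the tests when 4 or more libraries had 10 or more reads for it, which left 19266 genes in VCaP and 18204 in LAPC4. The 8 groups of a line were fitted together in edgeR 4.0.16 (R 4.3.3; TMM scaling, glmQLFit, glmQLFTest), with Benjamini-Hochberg adjustment over all tested genes and a threshold of 0.05, for 23 comparisons in all. Differences between times or lines were contrasts of the same kind. Standard errors were obtained from each log2 fold change and its quasi-likelihood F statistic. CPM values use the TMM factors, and log2 CPM a prior count of 2. The procedure was tested on simulated data: of genes changed 2-fold in a simulated VCaP comparison at 22 h, on 19266 genes, 93.9% were recovered, and 41.8% of those changed 1.25-fold. For LAPC4 these shares were 81.8% and 67.2%. Only 66 genes were changed 2-fold, and 67 each 1.5-fold and 1.25-fold, whereas 77.4% of genes passed in the real VCaP comparison. The simulation therefore does not test the scaling or the adjusted threshold where most genes move.

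The members were listed for this work, and the other pathway genes, the markers, the motifs and the rule for named genes (all members, further pathway genes with an absolute log2 fold change above 1 in VCaP at 22 h or among the 3 smallest p-values of a line at 22 h, and the 2 genes most correlated with each member) were chosen with earlier results of these data known. Alternatives were DESeq2 1.42.0, other filters, no TMM factors, a term for the slope of log2 CPM on GC content (known for 84.4% of the tested genes in VCaP and 84% in LAPC4), subsets of the control libraries, fits of the compared groups alone, a replicate block, and leaving out each darolutamide library. Some results are not reported here.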

Additional observations from a re-analysis of the deposited data

Results flagged for a closer look

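Of 160 sets of libraries (10 members, 16 groups), 7 held a library that stood apart from the others by Dixon's criterion, and chance alone gives about 1 in 20. In VCaP with 500 nM darolutamide, replicate 1 was the low library for GFPT1 at 22 h (391 CPM, median of the others 422) and, at 8 h, for NANS (14.1, others 15.3) and ST6GALNAC1 (17, others 18.5). With 2 µM in VCaP, replicate 5 was the high library for NANS at 8 h (15.3 CPM, others 12.4) and for GCNT1 at 22 h (79.8, others 68.5). Replicate 8 of R1881 in VCaP at 8 h was high for NANS (24.5 CPM, others 20.2), and replicate 5 of 2 µM in LAPC4 at 22 h was low for GNE (15.9 CPM, others 19.3).

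The R1881 effect differed between 22 and 8 h in VCaP, by the contrast of the effects in edgeR, by 1.91 log2 units for ST6GAL1, 1.52 for ST6GALNAC1, 1.15 for GALNT7, 1.08 for NANS, 1.05 for GNE, 0.79 for UAP1, 0.69 for GCNT1, 0.63 for GFPT1 and -0.35 for PGM3. In LAPC4 it differed by 1.62 for ST6GALNAC1 and 0.20 for ST6GAL1. Between the lines at 22 h it differed, VCaP minus LAPC4, by 2.30 for GNE, 1.81 for UAP1, 1.54 for NANS, 1.2 for GFPT1, 1.13 for PGM3, 0.77 for ST6GAL1, 0.71 for GNPNAT1, 0.54 for ST6GALNAC1 and 0.43 for GALNT7.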

How the results depend on the processing

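In VCaP, the number of members passing stayed within 1.5 times of that reported in every comparison and under every alternative run. Values near 0 changed sign: without TMM factors, GCNT1 (2 µM against R1881, 22 h) 0.061, UAP1 (2 µM against R1881, 8 h) 0.03, GALNT7 (500 nM against R1881, 22 h) 0.065 and GFPT1 (2 µM against DMSO, 8 h) -0.024; with control replicates 6 and above, GCNT1 0.043 and GALNT7 0.038; with control replicates 1 to 5, GFPT1 -0.039 and GNPNAT1 -0.007 against DMSO at 8 h, and GNPNAT1 0.001 for the change of the R1881 effect with time; with the GC term, GFPT1 -0.033 and, for that change, GNPNAT1 0.041. Leaving out 1 darolutamide library gave ranges of -0.009 to 0.07 for ST6GALNAC1 between the doses at 8 h, and against DMSO at 8 h of -0.036 to 0.023 for GFPT1 and -0.003 to 0.069 for GNPNAT1.

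In LAPC4 the counts moved more. For R1881 against DMSO at 22 h, 4 members passed with either subset of control replicates in place of 7. At that time GNPNAT1 (adjusted p = 0.135) and GNE (0.0828) also lost their calls with no filter, and GNPNAT1 without TMM factors (0.0607). At 8 h 1 member passed with either subset and with no filter, in place of 4. For 2 µM against R1881 at 8 h, 3 passed with the GC term, 2 with DESeq2 and 2 with the compared groups alone, in place of 1, and 1 to 2 on leaving out a library. For 500 nM against R1881 at 8 h, 0 passed with control replicates 1 to 5 and with the compared groups alone, and 0 to 1 on leaving out a library. Between the doses at 22 h, 0 passed with no filter, with control replicates 1 to 5 and with the compared groups alone, and 0 to 1 on leaving out a library. For the change of the R1881 effect with time, 5 passed with the GC term and 1 with control replicates 6 and above, in place of 2. Over all genes the calls moved too: for the change with time from 584 to 1531 with the GC term and 146 with control replicates 6 and above, and for 2 µM against R1881 at 8 h from 281 to 661 with the GC term. With no filter GNPNAT1 (2 µM, adjusted p = 0.0843) and GCNT1 (500 nM, adjusted p = 0.0688; compared groups alone, 0.0637) lost their calls against R1881 at 22 h. The cause was not tested.

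Deviations from the group mean correlated by -0.00511 on average between same-numbered libraries in VCaP and 0.0549 in LAPC4. Between libraries of different numbers the averages were 0.000668 and -0.00717. Single same-numbered pairs ran from -0.501 to 0.455 in VCaP and from -0.573 to 0.597 in LAPC4. An average over such a spread cannot decide whether the replicate numbers pair libraries. A replicate block left 10 members passing for R1881 in VCaP at both times and changed LAPC4 counts to 2 (R1881 at 8 h), 0 (500 nM against R1881 at 8 h) and 0 (between doses at 22 h). It ended the calls of UAP1 (adjusted p = 0.0562) and ST6GAL1 (0.0769) for 500 nM against R1881 and of NANS between doses (0.0654) in VCaP at 8 h, and in LAPC4 at 22 h those of GNE for R1881 (0.0722) and GCNT1 for 500 nM (0.226). Between doses at 22 h in VCaP GNPNAT1 passed under it (0.00813), and for 2 µM against DMSO at 22 h in LAPC4 52 genes passed in place of 3. Under the replicate block, GFPT1 was at -0.045 and GNPNAT1 at -0.012 for 2 µM against DMSO at 8 h in VCaP.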
